A study of Homo sapiens with 24 samples.

Results

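The 41 genes described here encode proteins that bind RNA and set how pre-mRNA is spliced. They comprise 12 SR and TRA2 proteins, 14 heterogeneous nuclear ribonucleoproteins (hnRNPs) and 15 regulators of tissue-restricted or other splicing programmes. They were chosen by gene symbol, not by level, and all 41 were found among the 57820 genes of the deposited gene table. Each of the 41 also passed the filter on low reads, which left 19835 genes. Expression was measured by sequencing of polyadenylated RNA from HUES6, an established line of human embryonic stem cells, kept in FTDA medium. Cells were either WT or carried a knockout (KO) of RBPMS, which itself encodes an RNA-binding protein. Mesoderm induction combined 1.5 ng/ml BMP4, a ligand of the BMP pathway, with 1.5 µM CHIR, the inhibitor CHIR99021 of the kinase GSK3 that switches on WNT signalling. Libraries were made at 0 h, before induction (labelled control), and at 3, 6 and 48 h, with 3 libraries in each of 8 groups (24 in all). Both genotypes share the line, the medium and the induction, and the labels do not say how many KO clones were used. The labels do not say whether the 3 libraries of each group are separate cultures, and p-values therefore measure only the spread between these samples.

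SR proteins carry a domain rich in arginine and serine, bind exonic enhancers and recruit the spliceosome, and the kinases of the SRPK and CLK families phosphorylate them. The hnRNPs coat nascent transcripts and often, though not always, repress the inclusion of exons. Several SR, TRA2 and hnRNP genes hold a poison exon, through which the protein limits its own mRNA. Among the tissue regulators, the ESRP proteins act in epithelia, the MBNL proteins promote splicing patterns of differentiated cells over those of pluripotent cells, and PTBP1 and PTBP2 control neuronal exons. RBFOX2 and QKI have roles in mesenchymal and mesodermal cells, RBM24 in heart and skeletal muscle, and the CELF proteins often oppose MBNL.

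The libraries held 29896358 to 50451908 reads, and the unit throughout is CPM, reads scaled to the total of the library with no division by gene length. Within a group, log2 values of all tested genes correlated at r = 0.995 to 0.998 in 5 of the 8 groups. In the other groups 1 library stood apart: WT 0 h library 1 (r of 0.975 and 0.978 with its mates), KO 3 h library 3 (0.989 and 0.988) and WT 48 h library 3 (0.991 and 0.991). WT 0 h library 1 also had 4.64% mitochondrial reads against 7.22% and 7.36% in its mates. Of the 41 members, 27 lay closer in this library to the KO 0 h mean than to its WT mates. At 0 h the RBPMS mRNA measured 155, 121 and 130.2 CPM in WT cells against 158, 153 and 153 in KO cells, a log2 difference of 0.25 ± 0.082 (adjusted p = 0.0391), so its level does not check the genotype label. The labelled cell type was checked against 10 pluripotency markers, which summed to 9498 to 10142 CPM in WT and to 10490 to 10763 CPM in KO at 0 h, with every marker above 1 CPM in at least 1 library.

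Per kilobase of exon (union of GENCODE 29 exons, the annotation behind the table being unstated), levels of the 41 mRNAs in uninduced WT cells spanned a wide range. HNRNPA1 stood highest at a mean of 811 CPM per kb. HNRNPA2B1 (277), HNRNPC (218) and HNRNPK (215) followed, and SRSF1 led the SR proteins at 139.9. At the low end lay RBM24 (0.171), MBNL2 (0.423) and MBNL3 (0.582), all of them tissue regulators. HNRNPA1, HNRNPC and other hnRNP genes have many pseudogene copies, and how the authors' counting treated shared reads is not stated, so their levels are uncertain.

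Promoter sequences are printed for 5 members whose mRNA moved most with induction or differed between genotypes, as the context in which the 3 SR, hnRNP and tissue classes can be compared. RefSeq windows (build GRCh38.p14) of up to 250 bases before the annotated start were found for 33 of the 41 members. The SRSF3 window (chr6:36594112-36594352, plus strand, 241 bases because it stops before the first annotated exon base), the SRSF6 window (chr20:43457646-43457895, plus strand), the HNRNPH1 window (chr5:179634785-179635034, minus strand), the PTBP2 window (chr1:96722388-96722637, plus strand) and the MBNL3 window (chrX:132490036-132490285, minus strand) read 5′ to 3′ as follows, with motif matches in capitals:
SRSF3: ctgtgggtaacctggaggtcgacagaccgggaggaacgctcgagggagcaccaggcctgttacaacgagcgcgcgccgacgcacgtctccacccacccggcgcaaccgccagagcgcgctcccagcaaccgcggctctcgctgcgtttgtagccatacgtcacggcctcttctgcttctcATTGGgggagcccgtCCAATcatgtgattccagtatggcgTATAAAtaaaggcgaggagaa
SRSF6: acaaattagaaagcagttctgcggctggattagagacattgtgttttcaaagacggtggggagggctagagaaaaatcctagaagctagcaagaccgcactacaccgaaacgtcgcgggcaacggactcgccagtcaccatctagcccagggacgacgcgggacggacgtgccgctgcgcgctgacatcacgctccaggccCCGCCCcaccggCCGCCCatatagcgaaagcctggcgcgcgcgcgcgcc
HNRNPH1: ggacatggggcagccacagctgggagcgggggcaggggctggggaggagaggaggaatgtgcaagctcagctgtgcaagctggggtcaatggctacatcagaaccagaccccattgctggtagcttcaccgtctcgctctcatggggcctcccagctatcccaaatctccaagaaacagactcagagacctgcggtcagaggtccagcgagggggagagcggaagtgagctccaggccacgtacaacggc
PTBP2: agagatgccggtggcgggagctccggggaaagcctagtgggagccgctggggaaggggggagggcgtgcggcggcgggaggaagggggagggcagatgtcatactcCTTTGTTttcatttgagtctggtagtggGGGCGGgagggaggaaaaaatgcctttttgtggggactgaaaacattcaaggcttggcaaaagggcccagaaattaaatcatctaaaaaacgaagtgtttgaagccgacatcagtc
MBNL3: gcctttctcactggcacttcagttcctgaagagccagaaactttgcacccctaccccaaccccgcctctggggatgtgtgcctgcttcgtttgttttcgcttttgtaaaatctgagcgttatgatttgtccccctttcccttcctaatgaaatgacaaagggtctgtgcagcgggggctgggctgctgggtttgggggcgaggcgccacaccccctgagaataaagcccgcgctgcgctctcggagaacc
The window of SRSF3 holds 2 CCAAT boxes, 70 and 55 bases before the start, and a TATA box 30 bases before it. SRSF6 has SP/KLF matches at 49 and 37 bases before the start. PTBP2 has a TCF/LEF match at 144 and an SP/KLF match at 116 bases before its start. The windows of HNRNPH1 and MBNL3 hold none of the 8 motifs searched, which says only that these letters are not there.

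The motifs were searched on both strands in the members and in all 35116 windows of the table. The E-box CACGTG was in 5 of 13 hnRNP windows (HNRNPA3, HNRNPD, HNRNPDL, HNRNPH3 and HNRNPM) and in no window of the SR or tissue members, against 6.34% of all windows. The CCAAT box CCAAT was in 8 of 13 hnRNP windows but in 1 of 10 SR windows and 2 of 10 windows of tissue regulators, against 32.0% of all. TATAAA was in 5 of 33 member windows (10.7% of all), GGGCGG, bound by SP and KLF factors, in 19 of 33 (42.6%), and the TCF/LEF motif CTTTGNT in 3 of 33 (13.2%). The ETS motif CCGGAAGT was in 3 of 33 (3.42%). The CRE TGACGTCA and the SMAD motif GTCTAGAC were in 0 of 33, and they are rare in all windows (1.65% and 0.182%). The GC content of member windows had a median of 65.6%, against 58% over all windows, so motifs rich in G and C have more chance to match there. These matches describe letters and were not tested.

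A rise within hours of induction, followed by a fall, was the most common course among the members. It was called for 22 of the 41 in WT and 23 in KO cells. These were higher at 6 h than at 0 h and lower at 48 h than at 6 h. The share of all genes with this course was not counted. Every comparison below is from 1 limma fit over all genes, on log2(CPM + 0.25) after TMM scaling, with the SE of the fit and Benjamini-Hochberg adjusted p-values. In WT cells 31 of the 41 members changed by 3 h (26 higher and 5 lower) at a background of 55.7% of all tested genes, and 32 changed by 6 h (25 higher and 7 lower) at a background of 62.1%. The higher calls exceeded the share of all genes that rose, 28.6% at 3 h and 31.1% at 6 h. In KO cells the counts were 36 at 3 h (29 higher and 7 lower; background 65.7%, 33.1% higher) and 35 at 6 h (26 higher and 9 lower; background 68.5%, 33.4% higher). By 48 h, 17 members differed from 0 h in WT cells (10 higher and 7 lower, background 53.3%). In KO cells 26 differed (19 higher and 7 lower, background 52.8%). Of all genes, 26.8% were higher and 26.5% lower in WT cells at 48 h, and 25.4% and 27.4% in KO cells. Between 6 and 48 h, 25 members fell and 5 rose in each genotype, at backgrounds of 63.8% in WT and 62.8% in KO cells, where 32.8% and 32.6% of all genes fell and 30.9% and 30.1% rose. A rise of 23 members at 6 h was called in both genotypes, comprising 10 SR, 9 hnRNP and 4 tissue genes. The highest group mean was at 6 h for 20 members in WT cells and 20 in KO cells. For the shared rises and the peaks too, the share over all genes was not counted. The comparisons with 0 h in a genotype share the same 0 h libraries. Without the TMM factors every gene moved by -0.10 and -0.13 (log2) in WT cells at 3 and 6 h and by 0.15 and 0.14 between 6 and 48 h in WT and KO cells, and the split between 6 and 48 h became 8 higher and 17 lower in WT and 7 higher and 16 lower in KO cells. Other measures moved over the same hours. Mitochondrial reads made up 4.64% to 7.36% of a library at 0 h, 3.12% to 5.24% at 3 h, 3.39% to 4.66% at 6 h and 2.46% to 3.25% at 48 h. The 8 epithelial markers summed to 1599 to 1938 CPM over both genotypes at 0 h, 2345 to 2577 at 3 h, 2359 to 2531 at 6 h and 2032 to 2192 at 48 h. The 6 neuroectoderm markers summed to 396 to 587 CPM at 0 h, 730 to 858 at 3 h, 759 to 861 at 6 h and 414 to 482 at 48 h. Depending on the group, 4 or 5 of these 6 were under 1 CPM in every library, so this sum rests on few genes. The part of these measures in the members' course was not tested. In these bulk samples, fewer cells of a type and less RNA per cell cannot be told apart.

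**Figure D1:**
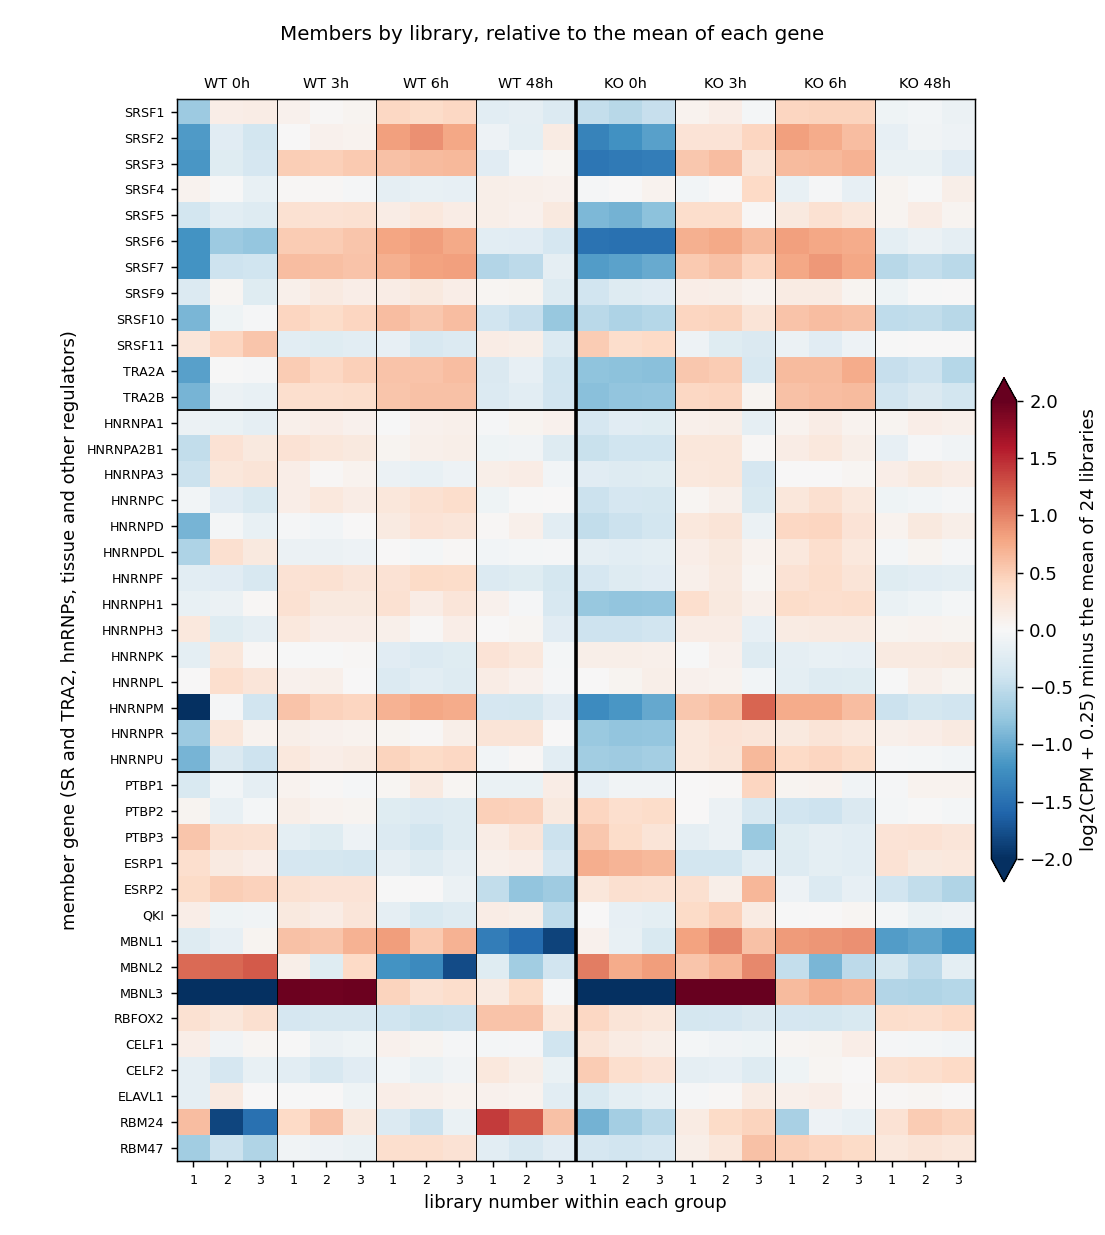
Heat map of the 41 members (rows, SR and TRA2 genes above, hnRNPs in the middle, tissue regulators below) in the 24 libraries (columns, by genotype and hour), coloured by log2(CPM + 0.25) of the deposited CPM minus the gene's mean over the 24 libraries. Most SR and hnRNP rows turn from blue at 0 h to red at 3 and 6 h in both genotypes, the column of WT 0 h library 1 lies below its mates by over 0.5 in 14 members, and MBNL3 exceeds the colour scale.

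The SR and TRA2 group moved together. In WT cells 9 of 12 rose and 1 fell at 3 h, and 10 rose and 1 fell at 6 h, with a median change of 0.79 and 1.08 (log2), against 0.011 and -0.0043 over all genes. In KO cells 10 rose and 1 fell at both hours, with medians of 1.13 and 1.37. All 10 that rose at 6 h fell again by 48 h in both genotypes. SRSF11 was the member that went the other way, and SRSF4 had no call in any of the 15 comparisons, with every library between 84.5 to 126 CPM.

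SRSF6, an SR protein that binds exonic enhancers, showed the largest log2 rise of the SR group at 3 and 6 h in both genotypes. Its WT libraries were at 153, 211 and 204 CPM at 0 h, 496, 498 and 513 at 3 h, 607, 625 and 591 at 6 h and 302, 300.4 and 279 at 48 h. The KO libraries were at 126, 125 and 125 CPM at 0 h, 577, 595 and 542 at 3 h, 619, 602 and 587 at 6 h and 305, 323 and 310.1 at 48 h. All induced libraries of either genotype lay above all uninduced ones, and the 6 h libraries of the genotypes overlapped. The change from 0 to 6 h was 1.83 ± 0.084 in WT (adjusted p = 5.77e-14) and 2.35 ± 0.084 in KO cells (2.90e-16).

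SRSF3, the smallest SR protein, also takes part in mRNA export. It stood at 376, 711 and 665 CPM in WT cells at 0 h, 1193, 1181 and 1210.2 at 3 h, 1263, 1313 and 1327 at 6 h and 725, 811 and 864 at 48 h. In KO cells it stood at 310.0, 315 and 324 CPM at 0 h, 1225, 1289.6 and 1007 at 3 h, 1306, 1327 and 1369 at 6 h and 767, 773 and 721 at 48 h. The KO libraries lay below the WT libraries at 0 h, and the genotypes overlapped at 3, 6 and 48 h. The rise to 6 h was 1.34 ± 0.15 in WT (adjusted p = 6.51e-08) and 2.16 ± 0.15 in KO cells (1.71e-11). At 48 h SRSF3 was still above 0 h by 0.48 ± 0.15 in WT (adjusted p = 0.00899), a call that ended without WT 0 h library 1 (adjusted p = 0.117), and by 1.20 ± 0.15 in KO cells (5.40e-07).

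SRSF2, also called SC35 and a classical marker of nuclear speckles, rose more slowly. Its WT libraries were at 127, 238 and 215 CPM at 0 h, 281, 295 and 292 at 3 h, 489, 526 and 474 at 6 h and 259, 242 and 310.5 at 48 h. The KO libraries were at 109.7, 120.1 and 131 CPM at 0 h, 338, 335 and 373 at 3 h, 493, 466 and 425 at 6 h and 248, 265 and 259 at 48 h. At 3 h every KO library lay above every WT library, without a call in that comparison, and at 6 h they overlapped. The change at 6 h was 1.55 ± 0.15 in WT (adjusted p = 6.58e-09) and 2.03 ± 0.15 in KO cells (4.53e-11). The WT call at 48 h (0.51 ± 0.15, adjusted p = 0.00612) ended without WT 0 h library 1 (0.0515).

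SRSF5, an SR protein that shuttles between nucleus and cytoplasm, rose by 3 h and was still above its 0 h level at 48 h. WT libraries stood at 282, 311 and 302 CPM at 0 h, 446, 441 and 447 at 3 h, 403, 418 and 401.5 at 6 h and 391, 384 and 416 at 48 h. KO libraries stood at 194, 188 and 205 CPM at 0 h, 461, 459.9 and 369 at 3 h, 416, 446 and 425 at 6 h and 374, 399 and 378 at 48 h. KO 3 h library 3 lay below its mates, and even so all induced libraries were above the uninduced libraries of both genotypes. From 6 to 48 h it fell by -0.19 ± 0.081 in WT (adjusted p = 0.0409) and -0.30 ± 0.081 in KO cells (0.00246). The WT call ended with RLE factors, DESeq2, the CPM as deposited or another filter on low genes (adjusted p 0.0703 to 0.692) and without any 1 of the 6 libraries other than WT 48 h library 3 (0.0712 to 0.208). The change at 48 h from 0 h was 0.39 ± 0.081 in WT (adjusted p = 0.000295) and 0.92 ± 0.081 in KO cells (2.48e-09).

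**Figure D2:**
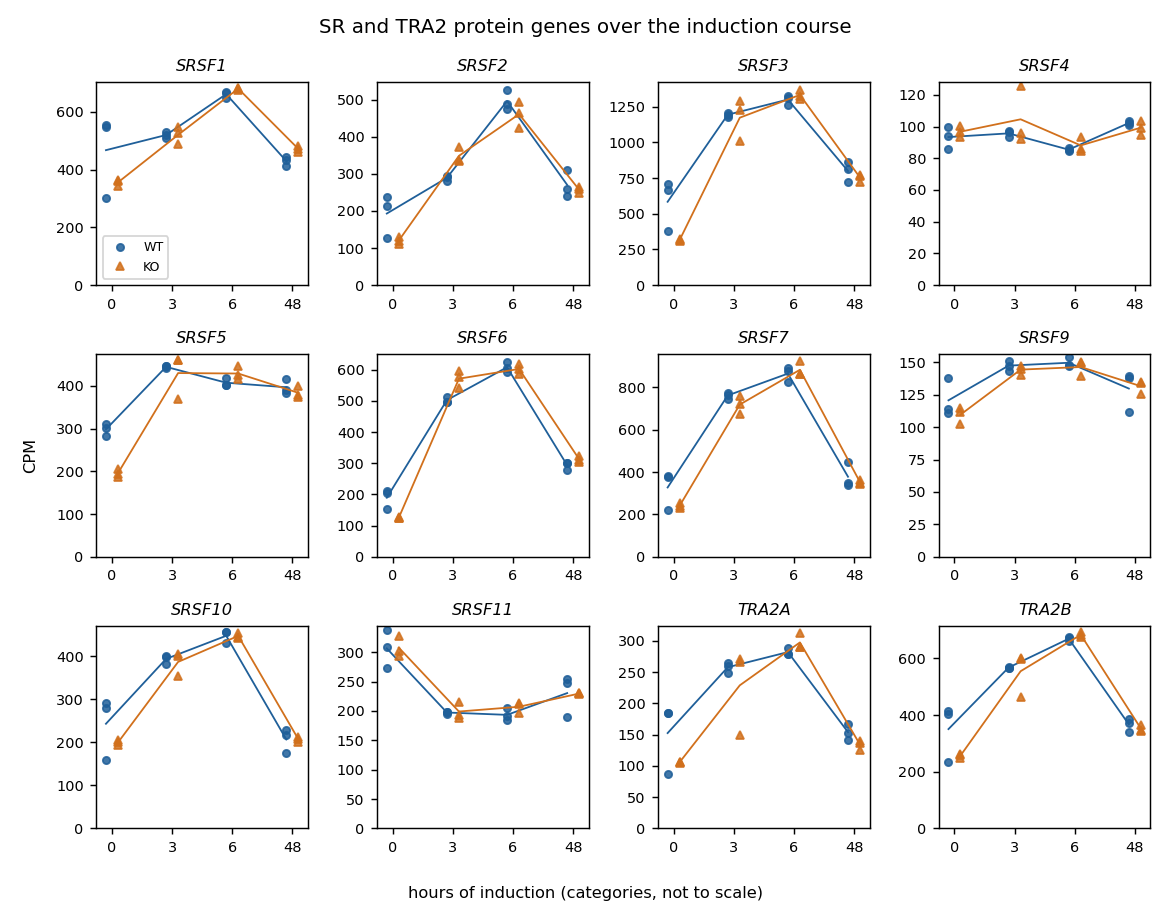
Level (deposited CPM, linear axis from 0) of the 12 SR and TRA2 genes at 0, 3, 6 and 48 h, with 1 point per library (circles WT, triangles KO) and lines through the mean of each genotype. The KO points of SRSF3, SRSF5 and SRSF6 lie below all WT points at 0 h and among or near them after induction, SRSF11 falls where the others rise, and SRSF4 stays level.

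The other SR genes that rose were given by their group levels. SRSF7 went from 220.5 to 383 CPM in WT at 0 h to 826 to 890.0 at 6 h and back to 337 to 447 at 48 h, with a 6 h change of 1.58 in WT and 1.96 in KO cells. TRA2A and TRA2B, SR-like activators of exon inclusion, rose at 6 h by 1.10 and 1.11 in WT and by 1.57 and 1.50 in KO cells. SRSF10, which acts as a repressor when dephosphorylated, rose by 1.07 and 1.25. Smaller 6 h changes were those of SRSF1 (0.69 and 1.02) and SRSF9 (0.45 and 0.50). Without WT 0 h library 1 the WT changes were 0.37 for SRSF1 (adjusted p = 9.60e-05) and 0.71 for TRA2A (0.000537). SRSF11 fell from 273 to 338 CPM at 0 h over both genotypes to 185 to 213 at 6 h, by -0.53 and -0.48, and its 0 and 6 h libraries did not overlap. All calls of the fit with all libraries in this paragraph were at adjusted p-values of 0.000117 or less.

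Of the 14 hnRNPs, 10 rose at 3 h in WT cells, and 9 rose and 1 fell at 6 h. Of the WT calls at 3 h, those of HNRNPA2B1, HNRNPD and HNRNPR (given below) ended without WT 0 h library 1. HNRNPA2B1 then went from 0.34 to 0.068 (adjusted p = 0.590) and HNRNPD from 0.45 to 0.15 (0.271). In KO cells 12 rose at 3 h, and 12 rose and 1 fell at 6 h. The medians over the group were 0.35 and 0.35 in WT and 0.46 and 0.66 in KO cells, below those of the SR group. By 48 h, 1 of the 14 (HNRNPU) was still higher in WT and 8 were still higher in KO cells. Of all genes, 26.8% and 25.4% were higher. HNRNPL, which binds CA repeats, was the member that fell at 6 h, by -0.31 in WT (adjusted p = 0.001) and -0.20 in KO cells (0.0188). The KO call of HNRNPL ended without KO 0 h library 3, KO 6 h library 2 or KO 6 h library 3 (adjusted p 0.0527 to 0.0748).

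HNRNPM had the largest log2 rise of the hnRNPs in both genotypes. It stood at 87.9, 389.9 and 302 CPM in WT and 165, 176 and 194 in KO cells at 0 h, and at 638, 676 and 662 and 662, 663 and 604 at 6 h. WT 0 h library 1 was the lowest of all 24 libraries for this gene. The change at 6 h was 1.73 ± 0.30 in WT (limma, adjusted p = 2.93e-05) and 1.94 ± 0.30 in KO cells (5.03e-06). Without WT 0 h library 1 the WT change at 6 h was 1.04 (1.88e-07). By 48 h no difference from 0 h was called in either genotype. The KO libraries of 48 h, at 292, 310 and 302 CPM, nevertheless all lay above those of 0 h. The SE is shared by all groups, and the wide WT spread at 0 h (SD 155 CPM, against 14.9 in KO cells) enters it. HNRNPU, a nuclear scaffold protein also known as SAF-A, rose by 1.10 and 1.18 at 6 h and was still higher at 48 h, by 0.45 (adjusted p = 0.00338; 0.25 without WT 0 h library 1) in WT and 0.61 (0.000211) in KO cells.

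HNRNPH1, which binds runs of G, began from different levels in the genotypes. Its WT libraries were at 701, 712 and 783 CPM at 0 h, 959.5, 882 and 886 at 3 h, 951, 860.1 and 919 at 6 h and 819, 765 and 619 at 48 h. The KO libraries were at 458, 446 and 454 CPM at 0 h, 974, 885 and 834 at 3 h, 999.8, 973 and 992 at 6 h and 704, 727 and 749.9 at 48 h. In KO cells every later library was above every 0 h library, whereas the WT 48 h libraries overlapped those at 0 h. At 3 h HNRNPH1 had risen by 0.41 ± 0.085 in WT (adjusted p = 0.000256) and 1.04 ± 0.085 in KO cells (3.85e-10). At 48 h it was higher by 0.63 ± 0.085 in KO cells (adjusted p = 1.73e-06), and the WT value was -0.024 ± 0.085 (0.835).

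HNRNPR, a close relative of SYNCRIP, changed far more in KO than in WT cells. WT libraries stood at 184, 358 and 322 CPM at 0 h, 332, 324 and 323 at 3 h, 318, 313 and 334 at 6 h and 368, 366 and 307 at 48 h. KO libraries stood at 183, 177 and 179 CPM at 0 h, 354, 369.6 and 361 at 3 h, 350.1, 367 and 354 at 6 h and 328, 336 and 348 at 48 h. WT 0 h library 1 lay just above the 3 KO libraries of that hour, and its mates lay among the induced libraries. The WT calls at 3 h (0.34 ± 0.14, adjusted p = 0.0428) and 6 h (0.35 ± 0.14, 0.0316) rested on that library: without it the changes were 0.016 and 0.025 (adjusted p = 0.868 and 0.789). In KO cells HNRNPR rose by 1.06 ± 0.14 to 3 h (adjusted p = 5.63e-07) and by 1.08 ± 0.14 to 6 h (3.68e-07), and at 48 h it was still higher by 0.85 ± 0.14 (1.88e-05).

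The 15 tissue regulators did not move as 1 group. In WT cells 7 rose and 4 fell at 3 h, 6 rose and 5 fell at 6 h, and 5 rose and 6 fell at 48 h. Of all genes, 28.6%, 31.1% and 26.8% rose in WT cells at these hours, and 27.1%, 31% and 26.5% fell. In KO cells the counts were 7 and 6 at 3 h, 4 and 7 at 6 h, and 3 and 6 at 48 h, higher and lower in turn. The KO shares of all genes were 33.1%, 33.4% and 25.4% higher and 32.6%, 35.1% and 27.4% lower. The medians of the 15 lay between -0.081 (KO at 48 h) and 0.14 (WT at 6 h). Members of the same family went different ways, and the MBNL genes show this most.

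MBNL3 had the largest change of any member. Its WT libraries were at 9.40, 5.74 and 6.17 CPM at 0 h, 169, 167 and 169.7 at 3 h, 58.9, 53.4 and 55.6 at 6 h and 49.3, 56.8 and 42.8 at 48 h. Its KO libraries were at 10.8, 8.39 and 8.68 CPM at 0 h, 215, 224 and 175 at 3 h, 67.2, 72.2 and 69.9 at 6 h and 28.7, 28.6 and 29.04 at 48 h. The 3 h libraries were above all others, and no induced library overlapped an uninduced one. The rise at 3 h was 4.65 ± 0.14 in WT (adjusted p = 1.97e-17) and 4.48 ± 0.14 in KO cells (1.35e-17). At 48 h the change from 0 h was 2.76 ± 0.14 in WT (adjusted p = 5.66e-14) and 1.56 ± 0.14 in KO cells (1.91e-09).

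MBNL1, the best studied member of the family and the one sequestered in myotonic dystrophy, rose early and then fell below its starting level. WT libraries stood at 14.2, 15.2 and 17.8 CPM at 0 h, 25.8, 25.2 and 27.7 at 3 h, 30.6, 24.8 and 27.7 at 6 h and 6.40, 5.73 and 4.55 at 48 h. KO libraries stood at 18.2, 15.4 and 13.8 CPM at 0 h, 30.2, 33.6 and 25.8 at 3 h, 31.1, 31.6 and 32.3 at 6 h and 7.79, 8.09 and 7.34 at 48 h. The 48 h libraries were the lowest in each genotype, with no overlap with any earlier hour. From 6 to 48 h MBNL1 fell by -2.42 ± 0.12 in WT (adjusted p = 5.75e-14) and -2.14 ± 0.12 in KO cells (6.35e-13).

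MBNL2 fell from a low level. Its WT libraries were at 2.01, 2.05 and 2.18 CPM at 0 h, 0.868, 0.623 and 1.10 at 3 h, 0.201, 0.178 and 0.0503 at 6 h and 0.623, 0.387 and 0.545 at 48 h. Its KO libraries were at 1.85, 1.47 and 1.60 CPM at 0 h, 1.26, 1.39 and 1.75 at 3 h, 0.492, 0.2995 and 0.468 at 6 h and 0.558, 0.468 and 0.653 at 48 h. WT 6 h library 3 was below the level of 3 reads, which corresponds to 0.0595 to 0.1003 CPM over the libraries. At 6 h MBNL2 had fallen by -2.51 ± 0.19 in WT (adjusted p = 2.13e-10) and -1.45 ± 0.19 in KO cells (7.10e-07), values that the pseudocount of 0.25 makes smaller at such low levels. At 3 h the fall in WT was -0.997 ± 0.19 (adjusted p = 0.000146), and the KO value was -0.10 ± 0.19 (0.664).

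**Figure D3:**
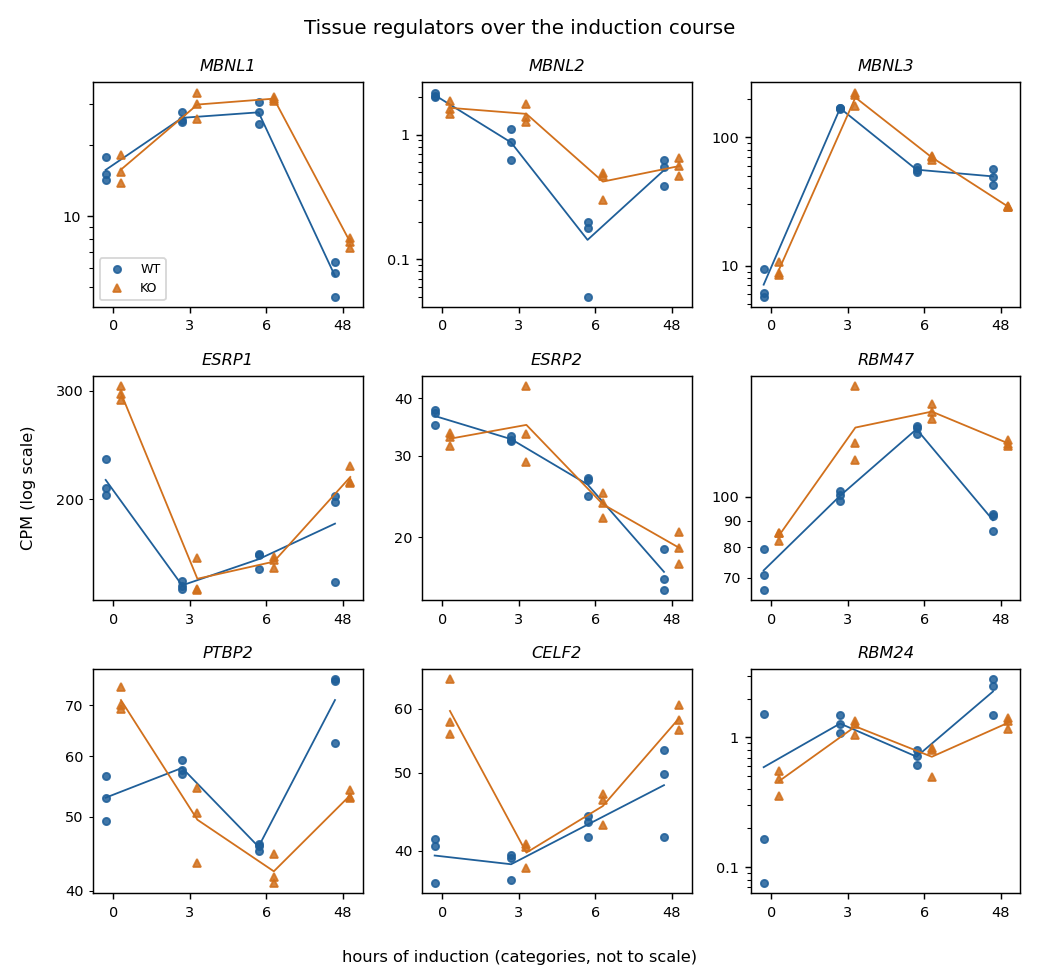
Level (deposited CPM, log axis) of 9 tissue regulators at 0, 3, 6 and 48 h, with 1 point per library (circles WT, triangles KO) and lines through the mean of each genotype. MBNL3 peaks at 3 h, MBNL1 drops below its 0 h level at 48 h, MBNL2 is lowest at 6 h, and the genotypes are apart at 48 h for MBNL1, MBNL3, PTBP2 and RBM47.

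The epithelial regulators ESRP1 and ESRP2 both fell, at different times. ESRP1 stood at 233, 209 and 203 CPM in uninduced WT cells, 147, 145 and 143 at 3 h, 162, 154 and 163 at 6 h and 198, 203 and 147 at 48 h. In KO cells it stood at 305, 297 and 289.6 CPM at 0 h, 143, 142 and 160.3 at 3 h, 155, 161 and 159 at 6 h and 226, 212 and 213 at 48 h. The 3 and 6 h libraries lay below all 0 h libraries, and the KO 48 h libraries lay between those of 0 and 6 h in KO cells. At 3 h the fall was -0.46 ± 0.087 in WT (adjusted p = 9.70e-05) and -0.95 ± 0.087 in KO cells (2.32e-09). The WT fall at 48 h (-0.27 ± 0.087, adjusted p = 0.0126) ended as a call without WT 48 h library 3 (0.132).

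ESRP2 declined late. It was at 35.1, 37.7 and 37.1 CPM in uninduced WT cells, 33.0, 32.5 and 32.3 at 3 h, 26.6, 26.8 and 24.6 at 6 h and 18.9, 15.4 and 16.2 at 48 h. In KO cells it was at 31.5, 33.5 and 33.0 CPM at 0 h, 33.4, 29.1 and 42.5 at 3 h, 24.9, 22.02 and 23.7 at 6 h and 20.46, 18.9 and 17.5 at 48 h. The 48 h libraries were the lowest, and KO 3 h library 3 was the highest of all 24. The fall at 48 h was -1.14 ± 0.10 in WT (adjusted p = 4.03e-09) and -0.83 ± 0.10 in KO cells (5.89e-07). Beside these values, the 8 epithelial markers summed to 1599 to 1938 CPM in WT and 1601 to 1761 CPM in KO cells at 0 h. Their sums were 2487 to 2577 and 2345 to 2441 at 3 h, and 2032 to 2110.3 and 2142 to 2192 at 48 h. The sum was thus above the 0 h range at both later hours, but the markers were split at 48 h. In WT cells 4 were called higher and 3 lower than at 0 h, against 26.8% and 26.5% of all genes. In KO cells 4 were called higher and 2 lower, against 25.4% and 27.4%.

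PTBP2, the neuronal paralog of PTBP1, went opposite ways in the genotypes. Its WT libraries were at 56.5, 49.4 and 53.0 CPM at 0 h, 59.3, 57.6 and 56.9 at 3 h, 46.1, 45.2 and 45.8 at 6 h and 75.7, 75.2 and 62.4 at 48 h. Its KO libraries were at 74.0, 69.2 and 70.1 CPM at 0 h, 54.6, 50.6 and 43.5 at 3 h, 41.7, 40.9 and 44.7 at 6 h and 53.1, 54.1 and 52.9 at 48 h. All induced KO libraries were below the KO libraries of 0 h, and the WT libraries of 48 h were above those of 0 h. At 48 h PTBP2 was higher than at 0 h by 0.40 ± 0.08 in WT (adjusted p = 0.000211) and lower by -0.47 ± 0.08 in KO cells (3.79e-05). The WT rise at 3 h (0.23 ± 0.08, adjusted p = 0.0171) ended as a call without WT 0 h library 2, WT 3 h library 1 or WT 3 h library 2 (adjusted p 0.0514 to 0.0853). PTBP3 fell at 6 h, by -0.56 in WT and -0.51 in KO cells (adjusted p = 0.00125 and 0.00258), and PTBP1 was between 311 to 519 CPM in all libraries.

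CELF2, an RNA-binding protein prominent in muscle and brain, was higher at 0 h in KO than in WT cells and had different courses. WT libraries stood at 40.5, 36.5 and 41.4 CPM at 0 h, 39.5, 36.8 and 39.2 at 3 h, 44.2, 41.6 and 43.5 at 6 h and 53.3, 49.8 and 41.7 at 48 h. KO libraries stood at 65.2, 57.8 and 55.7 CPM at 0 h, 40.4, 40.8 and 38.1 at 3 h, 43.1, 47.0 and 46.3 at 6 h and 56.5, 58.1 and 60.6 at 48 h. The KO libraries of 3 and 6 h were below those of 0 h, with no overlap, and those of 48 h overlapped them. The 6 h calls were opposite, 0.26 ± 0.082 in WT (adjusted p = 0.00822) and -0.30 ± 0.082 in KO cells (0.00257). The WT calls at 6 h and at 48 h (0.26 ± 0.082, 0.00985) ended without WT 0 h library 2 (0.0506 and 0.0601), without WT 6 h library 1 for the former (0.0589) and without WT 48 h library 1 for the latter (0.0647). CELF1 changed by no more than -0.28 in any comparison with 0 h.

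RBM47, an RNA-binding cofactor of APOBEC1-dependent editing, rose in both genotypes. It was at 66.4, 79.6 and 71.0 CPM in uninduced WT cells, 102, 100.9 and 97.9 at 3 h, 135, 137 and 131 at 6 h and 92.6, 86.0 and 91.8 at 48 h. In KO cells it was at 85.3, 82.4 and 85.1 CPM at 0 h, 117, 126 and 163 at 3 h, 150.0, 145 and 141 at 6 h and 125, 128 and 126 at 48 h. At every hour the KO libraries lay above the WT libraries with no overlap. At 6 h the rise was 1.03 ± 0.091 in WT (adjusted p = 1.64e-09) and 0.87 ± 0.091 in KO cells (1.47e-08).

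RBM24, a regulator of muscle exons, was near the floor of detection at 0 h. WT libraries were at 1.53, 0.0749 and 0.163 CPM at 0 h, 1.28, 1.48 and 1.08 at 3 h, 0.714, 0.614 and 0.805 at 6 h and 2.82, 2.48 and 1.50 at 48 h. KO libraries were at 0.354, 0.474 and 0.551 CPM at 0 h, 1.054, 1.26 and 1.34 at 3 h, 0.492, 0.834 and 0.803 at 6 h and 1.17, 1.41 and 1.33 at 48 h. WT 0 h library 1 was far above its mates and within the range of the induced libraries. The rise at 48 h was 1.93 ± 0.37 in WT (adjusted p = 0.000146), and without WT 0 h library 1 it was 2.69 (3.33e-10). In KO cells the rises at 3 h (1.09 ± 0.37, adjusted p = 0.0134) and 48 h (1.09 ± 0.37, 0.0178) ended as calls without KO 0 h library 1 (0.0512 and 0.0654).

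The remaining tissue regulators changed less. RBFOX2, which binds the sequence UGCAUG, fell from 247 to 282 CPM over both genotypes at 0 h to 155 to 172 at 6 h and was at 246 to 316 at 48 h. Its changes at 6 h were -0.58 in WT and -0.54 in KO cells (adjusted p = 5.54e-07 and 1.10e-06), and no change from 0 h was called at 48 h. QKI rose at 3 h in KO cells by 0.52 (adjusted p = 0.000421). In WT cells QKI was at 218 to 256 CPM at 0 h and 258 to 273 at 3 h, without overlap. ELAVL1, known as HuR and a stabiliser of mRNAs with AU-rich elements, rose at 6 h in KO cells by 0.39 (adjusted p = 0.000236). Its WT change at 6 h was 0.23, and 0.11 without WT 0 h library 1 (adjusted p = 0.237).

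Before induction the genotypes differed in 11 of the 41 members, at a background of 15.3% of all tested genes. The 6 lower in KO cells were 4 of 12 SR genes (SRSF2, SRSF3, SRSF5 and SRSF6) and 2 of 14 hnRNP genes (HNRNPH1 and HNRNPR). The 5 higher in KO cells were all tissue regulators: CELF2, ESRP1, PTBP2, MBNL3 and RBM47, at backgrounds of 6.52% lower and 8.77% higher. The median difference was -0.35 in the SR group, -0.12 in the hnRNPs, 0.13 in the tissue regulators and 0.0094 over all genes. With the CPM as deposited, 4 members were higher and 8 lower.

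**Figure D4:**
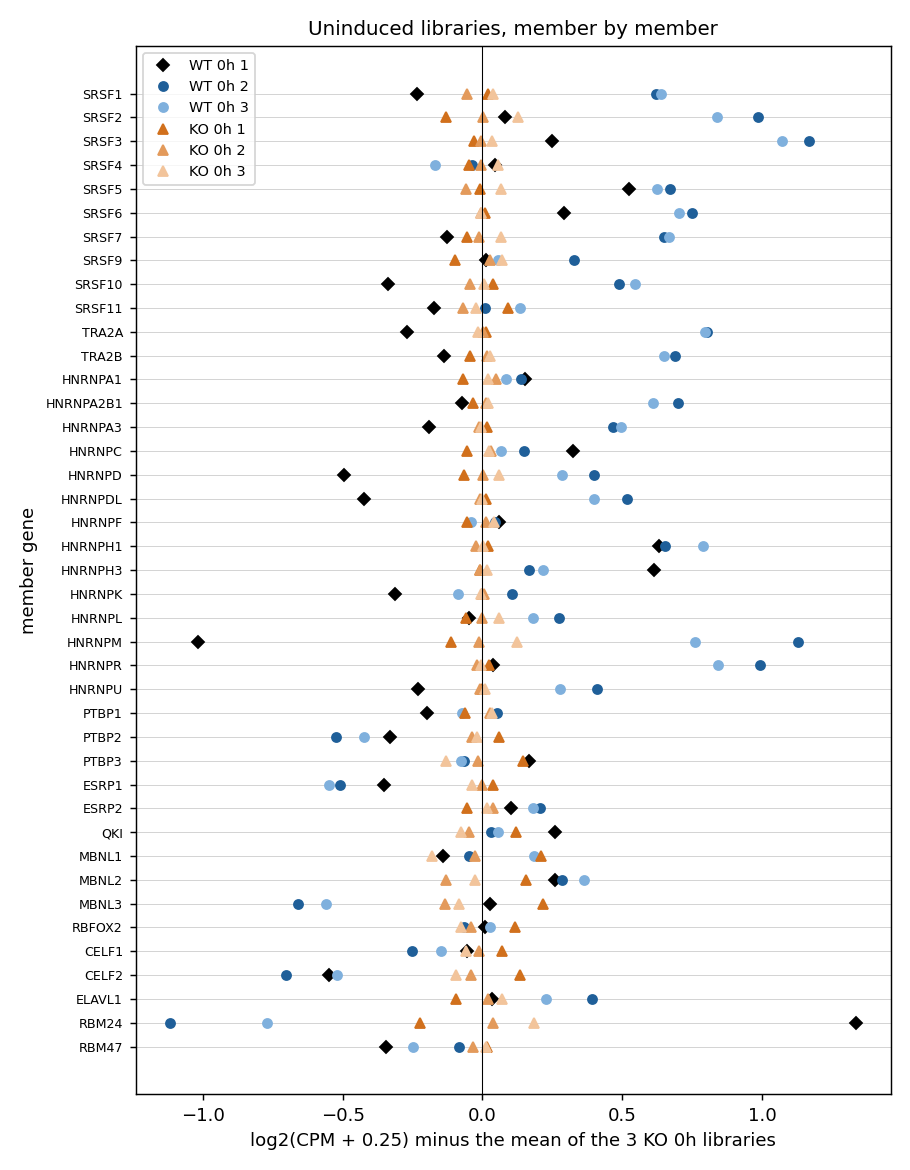
The 41 members (rows) in the 6 uninduced libraries, as log2(CPM + 0.25) of the deposited CPM minus the mean of the 3 KO libraries of 0 h (triangles KO, circles WT libraries 2 and 3, black diamond WT library 1). WT libraries 2 and 3 lie to the right for most SR and hnRNP genes and to the left for CELF2, ESRP1, PTBP2 and MBNL3, while the diamond lies closer to the KO mean than to its mates for 27 members.

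Among the SR genes at 0 h, SRSF5 and SRSF6 were lower in every KO library than in every WT library, by -0.55 ± 0.081 (adjusted p = 6.75e-05) and -0.53 ± 0.084 (0.000188). SRSF3 was lower by -0.78 ± 0.15 (adjusted p = 0.0012), again with no overlap. SRSF2 was lower by -0.58 ± 0.15 (adjusted p = 0.0104), and here WT 0 h library 1 lay within the KO range. HNRNPH1 was lower by -0.64 ± 0.085 (adjusted p = 2.43e-05) and HNRNPR by -0.57 ± 0.14 (0.00731). Without WT 0 h library 1 the number of members called rose to 25 (6 higher and 19 lower), SRSF3 was lower by -1.09, SRSF2 by -0.88 and HNRNPR by -0.89. The SRSF2 call ended without WT 0 h library 2, WT 0 h library 3 or KO 0 h library 1 (adjusted p 0.0576 to 0.0947), and that of HNRNPR without WT 0 h library 2 (0.0721). In a fit of the 6 uninduced libraries alone, 3 members were called: SRSF5 (adjusted p = 0.0286), HNRNPH1 (0.0229) and CELF2 (0.0415).

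Of the tissue regulators, CELF2 was higher in KO cells at 0 h by 0.64 ± 0.082 (adjusted p = 1.53e-05), ESRP1 by 0.52 ± 0.087 (0.000279) and PTBP2 by 0.48 ± 0.08 (0.000298). For each of these every KO library lay above every WT library. RBM47 was higher by 0.28 ± 0.091 (adjusted p = 0.0407), a call that ended without any 1 of 5 of the 6 libraries, WT 0 h library 2 being the exception (adjusted p 0.0848 to 0.113). MBNL3 was higher by 0.45 ± 0.14 (adjusted p = 0.0277) with overlap between the genotypes, and its call ended without WT 0 h library 2, WT 0 h library 3 or KO 0 h library 1 (0.126 to 0.188). WT 0 h library 1 lay more than 0.5 (log2) below its mates in 14 members and above them in 2, while the mates differed by that much in 0, and the part of this library in the differences is given by the values without it.

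During the first hours of induction few members differed. At 3 h RBM47 was the 1 member called, higher in KO cells by 0.42 ± 0.091 (adjusted p = 0.00806; background 2.78%, of which 0.862% higher and 1.92% lower). Without KO 3 h library 3 the RBM47 difference was 0.28 (0.0308). At 6 h MBNL2 was the 1 member called, higher in KO cells by 0.80 ± 0.19 (adjusted p = 0.0212; background 2.45%, of which 0.555% higher and 1.9% lower), and the call ended without WT 6 h library 3, KO 6 h library 1 or KO 6 h library 3 (0.117 to 0.205). For the 6 SR and hnRNP genes that differed at 0 h, the difference at 6 h lay between -0.10 (SRSF2) and 0.16 (HNRNPR) and missed the threshold, which does not show that their levels were equal.

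At 48 h the genotypes differed in 6 members, all tissue regulators, 4 higher and 2 lower in KO cells, at a background of 11.9% (6.86% higher and 5.07% lower). In KO cells RBM47 was higher by 0.51 ± 0.091 (adjusted p = 0.000383), MBNL1 by 0.49 ± 0.12 (0.0077), CELF2 by 0.30 ± 0.082 (0.0158) and ESRP1 by 0.28 ± 0.087 (0.033). MBNL3 was lower by -0.75 ± 0.14 (adjusted p = 0.000408) and PTBP2 by -0.39 ± 0.08 (0.00166). For each of the 6 the KO and WT libraries of 48 h did not overlap. Without WT 48 h library 3, which stood apart from its mates, 3 of the calls ended: MBNL1 (0.0602), ESRP1 (0.236) and CELF2 (0.103). The ESRP1 call also ended without KO 48 h library 1 (0.087) and that of CELF2 without KO 48 h library 3 (0.0583).

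**Figure D5:**
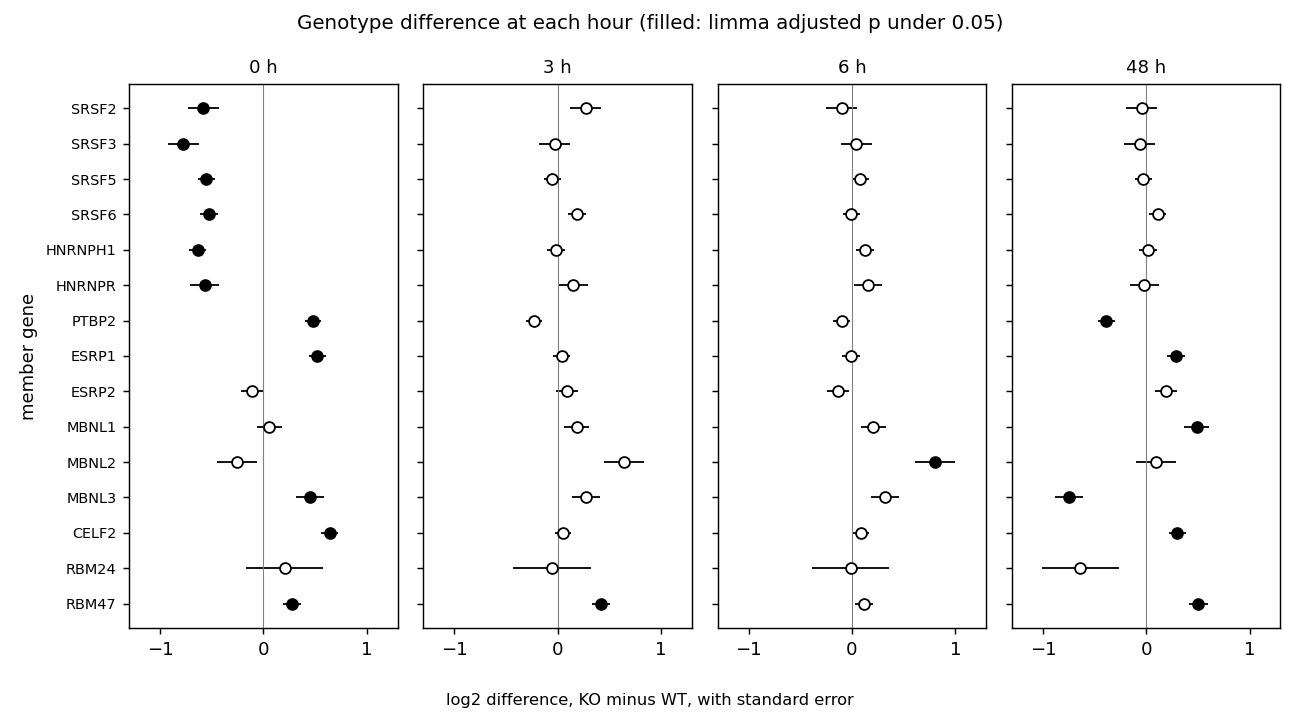
Difference between KO and WT (log2, with 1 SE of the fit) at 0, 3, 6 and 48 h for the 15 members whose libraries are given in full, with filled points for limma calls at an adjusted p under 0.05. The SR and hnRNP genes are below 0 and called at 0 h and open near 0 later, and MBNL3 and PTBP2 change from higher in KO at 0 h to lower in KO at 48 h.

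Marker genes of cell states moved with genotype at the same hour. At 48 h the 10 markers of the primitive streak and early mesoderm summed to 1739 to 1917 CPM in WT and 1054 to 1183 CPM in KO cells, and 9 of 10 were called lower in KO by the same fit. The 10 pluripotency markers summed to 5575 to 5914 CPM in WT and 7515 to 7705 CPM in KO cells, with 8 of 10 called higher in KO. The 6 markers of definitive endoderm summed to 110.4 to 130.03 CPM in WT and 175 to 199.9 CPM in KO cells (3 of 6 called higher), and the 9 mesenchymal markers to 898 to 1049 and 641 to 701 CPM (4 of 9 called lower). The part of these cell states in the differences of RBM47, MBNL1, MBNL3, ESRP1, CELF2 and PTBP2 was not tested.

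The interaction, the KO change from 0 h minus the WT change, tests directly whether the courses differed. It was called for 10 members at 3 h (7 positive and 3 negative; background 9.04%, 3.59% positive and 5.45% negative). At 6 h it was called for 9 (6 and 3; background 8.58%, 3.12% and 5.46%) and at 48 h for 6 (4 and 2; background 7.75%, 3.83% and 3.92%). The 3 interactions share all 6 uninduced libraries, so a difference at 0 h enters each of them. Without WT 0 h library 1 the counts were 21, 21 and 23.

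SRSF3, SRSF5, SRSF6 and HNRNPH1, lower in KO cells at 0 h, had positive interactions at all 3 hours. At 6 h the values were 0.82 ± 0.21 for SRSF3 (adjusted p = 0.0163), 0.63 ± 0.11 for SRSF5 (0.000787), 0.52 ± 0.12 for SRSF6 (0.0071) and 0.77 ± 0.12 for HNRNPH1 (0.000166). SRSF2 had a positive interaction at 3 h (0.85 ± 0.21, adjusted p = 0.0111) and HNRNPR at 3 and 6 h (0.72 ± 0.20, 0.021, and 0.73 ± 0.20, 0.0207). The SRSF3 interaction at 6 h ended as a call without WT 0 h library 2 or 3 (0.0504 to 0.0562), and those of HNRNPR without WT 0 h library 2 or 3 or 1 of several induced libraries (for 3 h, WT library 2 of that hour, and for 6 h, WT library 1, WT library 2 and KO library 2; adjusted p 0.0619 to 0.0699 and 0.0533 to 0.0682). At 3 and 48 h the SRSF3 interactions, 0.75 ± 0.21 (adjusted p = 0.0276) and 0.71 ± 0.21 (0.04), ended as calls without any 1 of 9 and 10 of the 12 libraries (adjusted p up to 0.0942 and 0.133). Each of these 6 genes started lower in KO cells and rose further.

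PTBP2 and CELF2 had negative interactions, -0.71 ± 0.11 (adjusted p = 0.000209) and -0.59 ± 0.12 (0.0017) at 3 h. For PTBP2 the value at 48 h was -0.87 ± 0.11 (adjusted p = 2.39e-05). ESRP1 was negative at 3 h (-0.49 ± 0.12, 0.0135) and 6 h (-0.53 ± 0.12, 0.00802). The most negative called value was that of MBNL3 at 48 h, -1.20 ± 0.19 (adjusted p = 0.000266). Without WT 0 h library 1, RBM24 was called at all 3 hours, at -1.02, -0.96 and -1.56 (adjusted p = 0.0118, 0.0179 and 0.000321), and at 48 h it then lay below MBNL3 (-1.36). MBNL2 had positive interactions at 3 h (0.90 ± 0.27, 0.0424) and 6 h (1.06 ± 0.27, 0.0169), of which the 6 h call ended without WT 6 h library 3 (0.0622) and the 3 h call without any 1 of 9 of the 12 libraries (adjusted p 0.0506 to 0.128).

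The transcript table gave a second readout, counts assigned to transcripts that GENCODE 29 annotates as retained introns. It holds 22.1% to 26.4% of the reads of a library, so these counts are a partial measure. They were divided by the gene's reads and given per 1000 reads, for 17 members and 1297 other genes with a mean of at least 30 such counts. At 48 h, 16 of the 17 members had fewer retained-intron counts per 1000 reads than at 0 h with no overlap in WT cells, where 67.6% of all 1314 genes did, and 16 of 17 in KO cells, where 86.8% did. The exception in both genotypes was SRSF7. No test was run on these ratios, and the KO share is close to the background.

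The time of the drop differed among members. For SRSF3 the values per 1000 reads in WT cells were 8.89, 7.41 and 7.76 at 0 h, 2.15, 2.15 and 1.95 at 3 h, 3.80, 2.34 and 3.00 at 6 h and 4.57, 3.73 and 2.03 at 48 h, with every later library below those at 0 h. The gene reads that divide these values rose over the same hours, and the retained-intron counts themselves were 155, 211 and 190 at 0 h, 118, 106 and 94 at 3 h and 215, 155 and 158 at 6 h. The counts at 6 h thus overlapped those at 0 h. Per 1000 reads, HNRNPL rose first in WT cells, from 40.9, 27.8 and 35.1 at 0 h to 69.4, 48.0 and 49.5 at 6 h. These ratios did not overlap, and they then dropped to 16.4, 12.3 and 12.6 at 48 h. The retained-intron counts themselves did overlap, at 369 to 502 at 0 h and 432 to 675 at 6 h. HNRNPL was the 1 member of 17 with higher ratios at 6 h in WT cells, a pattern found in 8.75% of the 1314 genes. It was also the hnRNP whose mRNA, the divisor of these ratios, fell at that hour. HNRNPL in KO cells went from 45.7, 36.6 and 40.1 at 0 h to 59.9, 42.5 and 62.5 at 6 h, which overlap, and to 12.04, 11.3 and 10.3 at 48 h. SRSF4, with no call for its mRNA, went from 22.03, 57.9 and 90.1 in WT cells at 0 h to 20.46, 10.3 and 10.6 at 48 h, and WT 0 h library 1 was well below its mates. At 0 h every KO library was above every WT library in 4 of the 17 members (SRSF3, TRA2A, TRA2B and CELF1), against 18.9% of the 1314 genes. TRA2B, for example, had 70.2, 72.7 and 89.4 in WT and 143, 106 and 95.0 in KO cells. In 1 member (HNRNPA2B1) every KO library was below every WT library, against 5.09% of the 1297 other genes. Both counts are close to these shares.

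Lists of genes that work beside the members were fitted in the same way. Of 41 core spliceosome genes, 27 rose and 1 fell in WT cells at 6 h, and 31 rose and 2 fell in KO cells, where 31.1% and 33.4% of all genes rose. From 6 to 48 h, 22 of them fell and 3 rose in WT and 25 fell and 2 rose in KO cells, against 32.8% and 32.6% of all genes that fell. The list's median at 6 h was 0.40 in WT and 0.59 in KO cells, between those of the hnRNPs and the SR group in WT. PRPF19, a ubiquitin ligase of the activated spliceosome, went from 114 ± 12.3 CPM (SD, n = 3) in WT at 0 h to 241 ± 11.1 at 6 h (1.22 ± 0.083, adjusted p = 2.67e-11). SF1, which recognises the branch point, went from 195 ± 4.02 to 397 ± 8.15 CPM (1.16 ± 0.079, 2.78e-11). At 0 h, 7 of the 41 were lower in KO cells, SF1 among them (-0.39 ± 0.079, 0.00199), against 6.52% of all genes.

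Among the kinases that phosphorylate SR proteins, CLK1, CLK3 and CLK4 were higher in KO cells at 0 h, where the called SR genes were lower. Of 9 listed kinases 8 were tested. In KO cells at 0 h 3 were higher and 1 lower, against 8.77% and 6.52% of all genes. At 0 h CLK1 was at 29.8 ± 5.71 CPM in WT and 49.9 ± 2.75 in KO cells (0.81 ± 0.12, adjusted p = 7.68e-05), and CLK4 at 17.7 ± 0.387 and 27.7 ± 2.86 (0.69 ± 0.12, 0.0005). CLK3 was also higher in KO cells, by 0.55 ± 0.16 (0.02), and SRPK1 was lower, by -0.26 ± 0.077 (0.0281). The exception was CLK2, at 42.1 ± 4.02 CPM in WT and 37.9 ± 1.65 in KO cells, with no call. By 3 h CLK1, CLK3 and CLK4 had fallen in both genotypes: at 3 h CLK4 was at 5.94 ± 0.416 CPM in WT (-1.44 ± 0.12, 1.20e-09) and 6.33 ± 0.617 in KO cells (-2.04 ± 0.12, 1.74e-12). DYRK1A, on the same list, rose at 3 h by 0.83 ± 0.078 in WT (adjusted p = 6.14e-09) and 0.67 ± 0.078 in KO cells (1.07e-07). At that hour 2 of the 8 rose and 5 fell in WT cells, against 28.6% and 27.1% of all genes. In KO cells 3 rose and 4 fell, against 33.1% and 32.6%. The interactions of CLK1 were -0.80 ± 0.17 at 3 h (adjusted p = 0.00376) and -0.91 ± 0.17 at 48 h (0.00127). These are opposite in sign to those of SRSF3, SRSF5, SRSF6 and HNRNPH1. At 48 h 3 kinases had negative interactions and SRPK1 a positive one, 0.38 ± 0.11 (0.0355). How the opposite directions of these CLK and SR genes relate to each other was not tested.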

How the data were processed

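RNA was isolated with the Quick-RNA MiniPrep kit and libraries were made with the TruSeq stranded mRNA kit, per the labels' protocols. The submitters' processing notes name the build hg38 and DESeq2. Not given in the sources used here are aligner, counter and annotation. The deposited gene table holds CPM, which the authors scaled to the total reads of each library. All values were whole multiples of the value of 1 read (100% within 0.1 read). The deposited transcript table holds raw counts from the authors, with no normalization. Header cells of the gene table sit 1 cell off their values, and with the shift undone 24 of 24 columns correlated best with their own transcript column (r = 0.957 to 0.994 over 569 genes), against 0 as it stands. Samples were grouped by the labels, and no column of per-sample values was left unused. Gene symbols, found for 89.9% of identifiers, and retained-intron transcripts came from GENCODE 29, in which 203462 of 246624 transcripts were matched.

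CPM were divided by TMM factors of the recovered reads, genes with few reads were removed (edgeR's filterByExpr, at least 10 reads and 15 in total), and limma with a trend was fitted to log2(CPM + 0.25) over all 24 libraries and 8 groups. Of 15 comparisons, 4 were of the genotypes, 6 of later hours with 0 h, 2 of 48 with 6 h and 3 interactions. Two-sided p-values received the Benjamini-Hochberg adjustment over 19835 genes, and calls were made at an adjusted p under 0.05. On this scale the pseudocount makes changes of low genes smaller. The fit was tested on simulated data. Alternatives were edgeR and DESeq2 on the recovered reads, RLE factors, the CPM as deposited, other filters and pseudocounts (0.1 and 1), a replicate block, a fit of only the groups compared, leaving out the 3 libraries that stood apart and leaving out each library. Tools were R 4.3.3, limma 3.58.1, edgeR 4.0.16, DESeq2 1.42.0 and Python 3.11.

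The members, the lists and the alternatives were chosen with earlier results of these data known. Libraries are given in full for members with a call of at least 0.5 (log2) between genotypes or in an interaction, or of at least 0.8 at 48 h. Up to 4 called genes per other list and comparison, by smallest adjusted p, may be named.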

Additional observations from a re-analysis of the deposited data

Results flagged for a closer look

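The results below drew attention because the response to induction differed between WT and KO cells in a limma test of the interaction itself, by at least 0.5 on the log2 scale. Each value is the KO change from 0 h minus the WT change.

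A larger rise in KO cells was found for SR and hnRNP genes. SRSF3 had interactions of 0.75 at 3 h, 0.82 at 6 h and 0.71 at 48 h. SRSF5 had 0.50, 0.63 and 0.52 at the same hours. SRSF6 had 0.71, 0.52 and 0.64. HNRNPH1 had 0.62, 0.77 and 0.65. HNRNPR had 0.72 at 3 h and 0.73 at 6 h, and SRSF2 had 0.85 at 3 h. These genes were lower in KO cells before induction.

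Tissue regulators differed in both directions. PTBP2 had -0.71 at 3 h, -0.58 at 6 h and -0.87 at 48 h. CELF2 had -0.59 at 3 h and -0.56 at 6 h. ESRP1 had -0.53 at 6 h. MBNL2, close to the floor of detection, had 0.90 at 3 h and 1.06 at 6 h, and MBNL3 had -1.20 at 48 h.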

How the results depend on the processing

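With 3 libraries a group, of 281 member calls in 15 comparisons 199 held under all alternatives run and 82 ended under at least 1; no member's direction reversed where it had been called. The fit of only the groups compared ended 40 calls, the CPM as deposited 34, no filter on low genes 25, the filter of 5 CPM in 3 libraries 23, RLE factors 10, DESeq2 7 and edgeR 5. Several counts moved by over 1.5 times. Without the 3 libraries apart, an alternative chosen with earlier results known, KO and WT differed in 29 members at 0 h (main 11), 8 at 3 h (1), 6 at 6 h (1) and 12 at 48 h (6), WT cells changed in 26 at 48 h against 0 h (17), and interactions numbered 27 at 3 h (10), 28 at 6 h (9) and 30 at 48 h (6). With only the groups compared, the counts were 3 at 0 h, 0 at 3 h, 6 at 6 h, 9 in WT at 48 h against 0 h and 5 for the interaction at 3 h. At 3 h 2 members were called by DESeq2 and 2 with a pseudocount of 1, and at 6 h 0 were called by limma with no filter, with the 5 CPM filter, which removes MBNL2, or with a pseudocount of 1. In the main limma fit 6 members had an unadjusted p under 0.05 at 3 h and 3 at 6 h, and edgeR called 1 at either hour. The cause of these shifts was not tested.

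Leaving out 1 library in turn gave 8 to 25 members between genotypes at 0 h (25 without WT 0 h library 1), 1 to 1 at 3 h, 0 to 1 at 6 h and 3 to 6 at 48 h (3 without WT 48 h library 3). It gave 26 to 30 in WT at 3 h, 28 to 32 at 6 h and 15 to 19 at 48 h, and 33 to 35, 33 to 34 and 19 to 24 in KO cells. Between 6 and 48 h it gave 24 to 30 in WT and 21 to 24 in KO cells. Interactions numbered 7 to 21 at 3 h, 7 to 21 at 6 h and 5 to 23 at 48 h.

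In the gene levels the replicate numbers did not pair the samples. Same-numbered libraries correlated in their deviations from the group means at -0.19 to 0.19, and 0 of 12 comparisons had every pair over 0.1. The retained-intron ratios were not part of this check. With a replicate block all 281 calls held, and the counts were 11 at 0 h and 27 in KO cells at 48 h against 0 h (main 26). Depth limits MBNL2 and RBM24, which lie within a few reads of the floor in some libraries.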

Other observations

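Relatives of the members that the choice by symbol did not include were fitted too. Of 38 tested, 9 were higher in KO than in WT cells at 48 h, where 6.86% of all genes were higher, with a median of 0.16 against -0.011 over all genes (log2, limma). ELAVL2, a neuronal relative of ELAVL1, was at 37.2 ± 2.80 CPM in WT and 31.8 ± 1.67 in KO cells at 0 h, and at 8.67 ± 1.76 and 20.8 ± 0.559 at 48 h (difference 1.28 ± 0.12, adjusted p = 5.60e-08; SD, n = 3). HNRNPH2, a close relative of HNRNPH1, was at 157 ± 45.7 CPM in WT and 329 ± 2.75 in KO cells at 48 h (1.13 ± 0.17, 7.35e-05), with a wide spread in WT. HNRNPH1 overlapped between the genotypes at that hour. SRRM4, a regulator of neuronal microexons, was at 2.93 ± 0.0508 CPM in WT at 0 h, 8.82 ± 0.337 at 3 h and 1.23 ± 0.0669 at 48 h.

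Of 11 RNA-binding proteins of stem cells, 4 were higher and 1 lower in KO cells at 0 h, and 3 were higher at 48 h, against 8.77% higher and 6.52% lower of all genes at 0 h and 6.86% higher at 48 h. TRIM71, a partner of the let-7 pathway, was at 1548 ± 103 CPM in WT and 2020.1 ± 134 in KO cells at 0 h and at 553 ± 74.5 and 675 ± 30.1 at 48 h. L1TD1 was at 919 ± 93.2 CPM in WT and 1472 ± 61.6 in KO cells at 48 h.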
